A study of Drosophila melanogaster with 4 samples.

Results

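Cone cells (CCs, also called Semper cells) of the Drosophila melanogaster retina were compared between the first and the last stage sampled, adult against larval, using 2 of the 4 sequenced libraries. All 14935 genes with a value were included, and the pupal CC library served only to place a called gene in time. Of these genes 1346 were higher in adult than in larval CCs (9.01%), 665 were lower (4.45%), and the remaining 12924 were not called. In either direction the rule called 13.5% of all genes. Among the 6435 genes expressed at 32 units or more in either library, 20.9% were higher and 10.3% lower.

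The adult CC library came from retinas of yw67; sp/CyO; TM2/TM6B flies, 1 to 2 days after eclosion, whose cells were stained for the adhesion molecule Fas3, which marks CCs, and with the antibody 22C10, which binds the Futsch protein of photoreceptors (PRs) and bristle neurons. The larval CC library came from eye tissue of wandering larvae of the last instar of the genotype sev-; prosPSG-GFP; TM2/TM6B, sorted by GFP alone. The sev mutation removes the R7 photoreceptor, which otherwise shares the activity of the pros enhancer with the CCs. Pupal CCs, 25 h after puparium formation, had the larval genotype and sort. Tissue of 45 to 75 animals was pooled for each stage. Adult and larval CCs thus differed in stage, in genotype and in the way they were sorted, and each is 1 separately prepared library, so these factors cannot be told apart. With 1 library per stage in the values used here there is no replicate check and no p-value, and another adult CC library that the study prepared is not analysed here. The study made these libraries to describe the transcriptome of CCs as they mature.

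The CCs sit above the photoreceptors of each ommatidium. They are recruited late in the larval eye disc through Notch and receptor tyrosine kinase signals, and in the pupa they spread over the photoreceptors and begin to secrete the lens. In the adult they form the floor of the corneal lens and the pseudocone beneath it, and send processes down to the feet between the photoreceptor axons.

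Levels below are log2 TMM-normalized read counts as deposited. Counts of 1 or less after normalization carry a 0 in the files, and such genes are described as listed at 0. They are not divided by gene length, so each level is read only against that of the same gene in another library. Differences are adult minus larval CCs on log2(normalized count + 4), and a gene was called at a difference of 2 or more in size, a 4-fold change, with 32 units or more on the linear scale in the higher library. Because of the added 4 units, the difference understates the change of a weakly expressed gene. In the adult library 11557 genes were listed above 0, against 9344 in the larval library. From the steps between low values, the adult column held an estimated 3.81 M reads on genes and the larval column 2.48 M. On that estimate 32 units stood for about 37.5 adult and 53.6 larval reads. The paper reports several times as many reads per sample. The linear values of the adult column summed to 2.20 times those of the larval column. The median difference over the 9074 genes at 8 units or more in either library was 0.49, and with both columns scaled to equal totals log2 ratios fell by 1.14. Under that scaling 703 genes were higher and 1557 lower (31.1% of the calls were higher, against 66.9% as deposited), and with the median log2 ratio set to 0 there were 1048 higher and 824 lower genes. Both scalings lower the log2 ratios, so they can only remove higher calls and add lower ones.

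**Figure D1:**
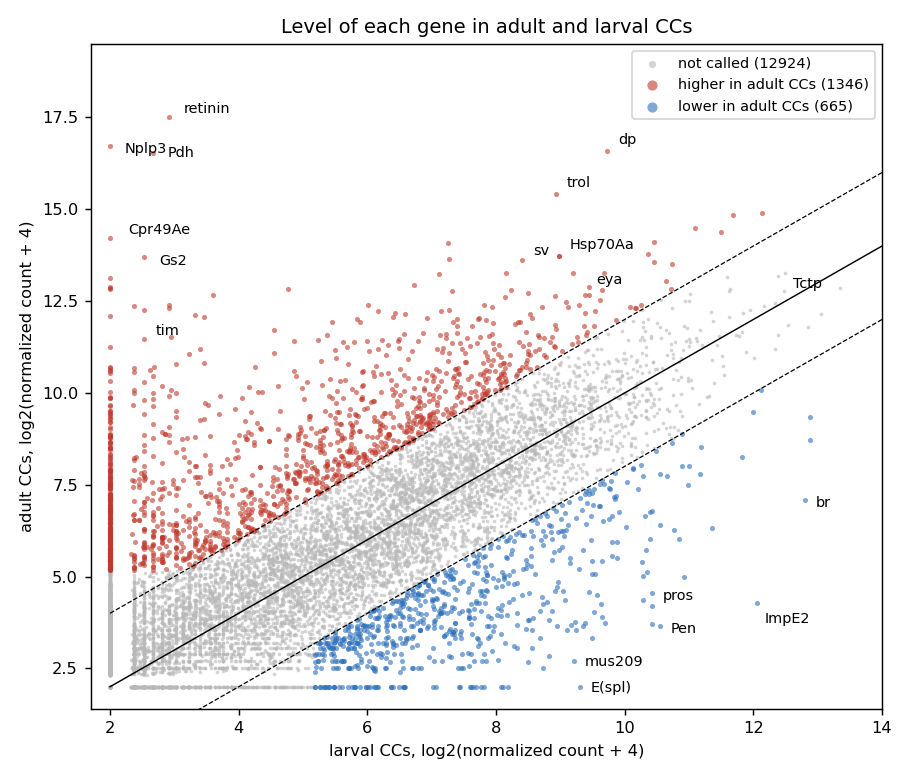
Each point is 1 gene, with its level in adult CCs on the vertical and in larval CCs on the horizontal axis, both as log2(normalized count + 4). The solid line marks equal levels and the dashed lines a difference of 2, and the 1346 higher (red) and 665 lower (blue) genes lie beyond them. A column of red points at the left edge holds the 273 genes listed at 0 in larval CCs.

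Genes higher in adult CCs were mostly weak or unseen in larval CCs. Of the 1346, 273 were listed at 0 and 557 lay under 8 units in the larval library, and 553 were already at 32 units or more there. Their median level was 8.14 in adult CCs and 4.02 in larval CCs. Of the 665 genes lower in adult CCs, 51 were listed at 0 and 268 lay under 8 units in the adult library, with a median level of 3.42 in adult CCs and 7.14 in larval CCs. The 1346 higher genes made up 57.2% of the adult total and 7.75% of the larval total, and the 665 lower genes 0.684% of the adult and 15.1% of the larval total. The median difference was 3.27 among the higher genes and -2.96 among the lower genes. A difference of 3 or more, 8-fold, was reached by 802 higher and 324 lower genes, and one of 8 or more by 31 higher and 0 lower genes.

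A few transcripts accounted for much of the adult library. The 5 genes retinin, Nplp3, dp, Pdh and trol held 16.4% of the adult total and 0.09% of the larval total. retinin, which encodes a protein of the corneal lens, stood at 17.52 in adult CCs and 1.84 in larval CCs. Nplp3, a neuropeptide-like precursor gene, was at 16.72 in adult CCs but 0 in the larval column. Pdh, which encodes a retinol dehydrogenase known from retinal pigment cells, was at 16.53 in adult CCs and 1.26 in larval CCs. Each of these 3 genes was thus among the most abundant of the adult library and close to undetected in the larval one. dp, the gene of the giant apical matrix protein Dumpy, had levels of 16.59 in adult CCs and 9.72 in larval CCs. trol, which encodes the basement membrane proteoglycan perlecan, had levels of 15.42 in adult CCs and 8.92 in larval CCs. Both were therefore well expressed in larval CCs and higher still in adult CCs.

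Among the 15 genes with the largest increase, 8 were listed at 0 in larval CCs, Nplp3 and 7 others. Cpr49Ae, a chitin-binding cuticle protein gene, was at 14.23 in adult CCs. CG5597 and the lens crystallin gene, whose symbol in the files is Cry, were at 13.12 and 12.88 in adult CCs. hoe1, which encodes a membrane protein related to the mammalian melanosomal P protein, was at 12.83 in adult CCs, and CG2254, CG33205 and the cytochrome P450 gene Cyp4c3 were at 12.86, 12.08 and 11.25. As all 7 were listed at 0 in larval CCs, no fold is given. Gs2, a glutamine synthetase gene, had levels of 13.69 in adult CCs and 0.84 in larval CCs, a difference of 11.16. The serotonin receptor gene 5-HT2 (12.26 in adult and 0.84 in larval CCs), the lipid transfer protein gene Esyt2 (12.36 in adult and 0.26 in larval CCs), the protein kinase A catalytic subunit gene Pka-C3 (12.32 in adult and 1.84 in larval CCs) and Osi9 (12.39 in adult and 1.84 in larval CCs) completed the set.

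The largest decreases included genes of the hormone response, Notch targets and genes of cell division and cell adhesion. ImpE2, an ecdysone-inducible gene of imaginal discs, was at 3.94 in adult CCs and 12.06 in larval CCs, a difference of -7.78. E(spl), the file's symbol for the Notch-induced repressor gene m8 of the Enhancer of split complex, was listed at 0 in adult CCs and was at 9.29 in larval CCs. Pen, which encodes an importin alpha, was at 3.10 in adult and 10.54 in larval CCs, and mus209, the gene of the replication clamp PCNA, was at 1.36 in adult and 9.21 in larval CCs. These 4 genes were strongly expressed in larval CCs and weak or unseen in adult CCs. dpn, a neuroblast bHLH gene, was at 0.77 in adult and 8.72 in larval CCs, and nerfin-1, a zinc finger gene of young neurons, at 3.86 in adult and 10.43 in larval CCs. The nephrin-like adhesion gene rst was at 3.23 in adult and 9.69 in larval CCs, the receptor-like gene otk at 2.58 in adult and 9.49 in larval CCs, and the serpin gene Spn43Aa at 3.18 in adult and 10.42 in larval CCs. Incenp, HLHmdelta and CG12911 were listed at 0 in adult CCs and stood at 8.17, 8.05 and 8.08 in larval CCs. The noncoding RNA pncr002:3R, the endonuclease gene Rrp1 and CG43164 made up the rest of the 15, with differences of -5.92, -5.99 and -5.93.

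**Figure D2:**
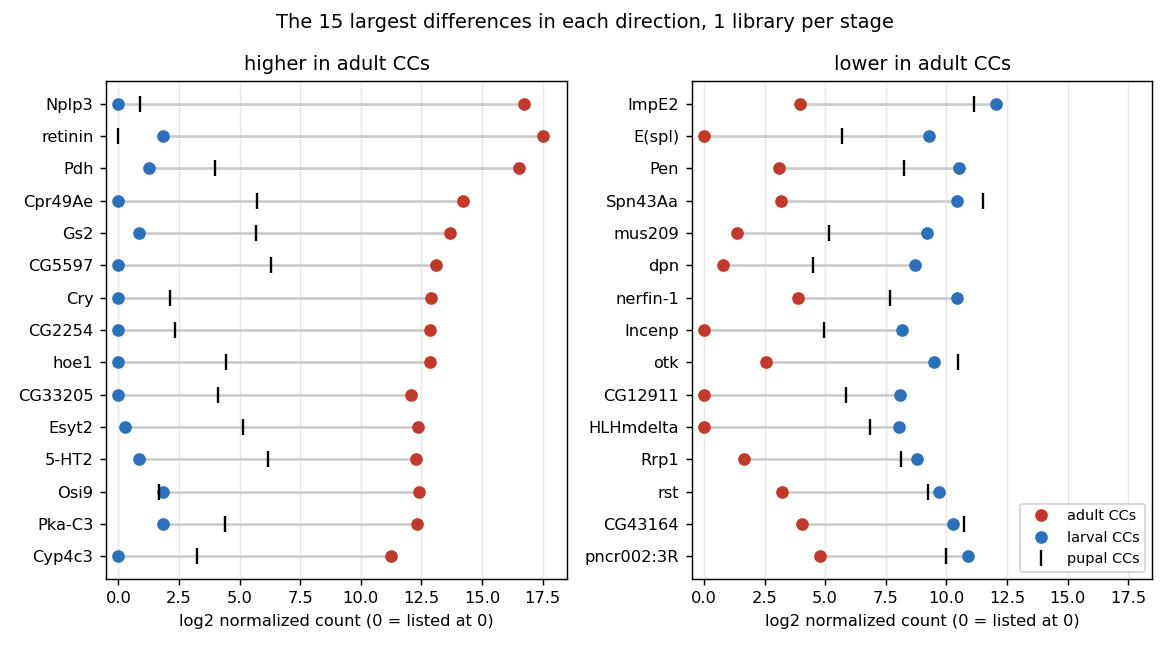
Log2 normalized counts of the 15 genes with the largest difference in each direction, with adult CCs in red, larval CCs in blue and pupal CCs as a black tick, 1 library each. For higher genes the pupal tick lies nearer to the larval point in all 15, and for lower genes it lies beyond the larval point for Spn43Aa, otk and CG43164.

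The 10 most abundant called genes in each direction also included genes with smaller differences. Among the higher genes these included the noncoding RNAs CR42862 (14.89 in adult and 12.13 in larval CCs) and Hsromega, a heat shock RNA (14.48 in adult and 11.09 in larval CCs), and Msp-300, the gene of a nuclear envelope spectrin repeat protein (14.38 in adult and 11.49 in larval CCs). Among the lower genes, the chromatin protein genes HmgD (9.34 in adult and 12.88 in larval CCs) and Df31 (8.70 in adult and 12.88 in larval CCs), the histone variant gene His2Av (8.51 in adult and 11.19 in larval CCs) and the tubulin gene betaTub56D (9.47 in adult and 11.99 in larval CCs) were among the 10 most abundant in the larval library. They fell by 2.51 to 4.17 and were still well expressed in adult CCs. The 10 genes with the highest mean level among those that differed by less than 0.5 included Tctp (12.77 in adult and 12.47 in larval CCs), the elongation factor gene Ef2b (12.18 in adult and 11.83 in larval CCs), the zinc finger gene lola (12.45 in adult and 12.33 in larval CCs) and the profilin gene chic (11.56 in adult and 11.47 in larval CCs).

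At the limit of the rule, Ca-alpha1D, CG42446, RpL36 and CG12207 were just inside with differences of 2.005 or less, and CG8317, par-1, Rtnl1 and CG33275 were just outside with differences of 1.997 or more. On the lower side Bgb, mus301, CG17078 and Brd8 were just inside at -2.004 to -2.005, and Aats-lys, CG5937, ran and elav just outside at -1.996 to -1.998.

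Genes of the lens were the list with the largest share of higher calls. This list was chosen with earlier results of these data known, so its share depends on the members picked. Of its 11 measured members 7 were higher in adult CCs (63.6%, against 9.01% of all genes), and none was lower. Besides retinin, Cpr49Ae, CG5597, Cry and dp, these were the cuticle protein gene Cpr72Ec, at 10.71 in adult CCs and listed at 0 in larval CCs, and Gasp, which encodes a secreted chitin-binding protein (12.39 in adult and 10.26 in larval CCs). Members at 8 units or more had a median difference of 8.71, beside 0.49 for all genes. The other members, dy, dyl, Cpr64Ad and CG2650, lay below 32 units in both libraries. Gasp alone was no longer called with equal library totals.

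Few of the cuticle protein genes were called. Of 99 genes of the Cpr family, 6 were higher and 1 lower, which is no larger a share than that of all genes, and 44 members were listed at 0 in adult CCs and 76 in larval CCs. Besides the 2 lens genes, Cpr100A (9.71 in adult and 2.84 in larval CCs), Ccp84Ag (8.11 in adult CCs and listed at 0 in larval CCs), Cpr92F (8.10 in adult and 2.43 in larval CCs) and Cpr49Ag (6.58 in adult CCs and listed at 0 in larval CCs) were higher, and Cpr51A was lower (0.77 in adult and 6.20 in larval CCs). None of the 27 Tweedle and related cuticle genes was called.

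Apical matrix genes with a zona pellucida domain, which tether cells to the overlying matrix, were called in both directions. Of 17 genes 8 were higher and 2 lower (47.1% and 11.8%, against 9.01% and 4.45% of all genes). CG17111 was at 10.57 in adult and 0.26 in larval CCs, qsm (quasimodo) at 11.39 in adult and 5.50 in larval CCs, and pio (piopio) at 12.47 in adult and 9.08 in larval CCs. cyr was at 8.20 in adult CCs and listed at 0 in larval CCs. The 2 lower genes were neo (4.36 in adult and 6.86 in larval CCs) and CG10005, and both were highest in pupal CCs. Genes of chitin synthesis, modification and breakdown were likewise split, with 12 of 40 higher and 5 lower (30% and 12.5%). CG42345, which the reference annotation pairs with the cuticle-hardening laccase, was at 11.42 in adult and 6.41 in larval CCs, and Ddc and ple, which make the catecholamines of cuticle tanning, were at 8.83 and 7.62 in adult CCs and 3.60 and 3.50 in larval CCs. The chitin deacetylase gene Cda5 (10.04 in adult and 5.40 in larval CCs) was higher, whereas the deacetylase genes Cda4 (2.35 in adult and 8.12 in larval CCs), serp (4.36 in adult and 8.90 in larval CCs) and verm (5.43 in adult and 9.79 in larval CCs) and the chitinase gene Cht3 (6.72 in adult and 10.42 in larval CCs) were lower. Different members of 1 enzyme family thus stood on opposite sides of the comparison. The basement membrane list was divided in the same way, with 4 of 25 higher and 6 lower (16% and 24%). Among them trol, LanB1 (11.51 in adult and 8.85 in larval CCs) and the metalloproteinase inhibitor gene Timp (8.63 in adult and 4.85 in larval CCs) were higher. Mmp2 (4.94 in adult and 10.34 in larval CCs), the collagen gene mp (4.00 in adult and 8.78 in larval CCs) and LanA (5.83 in adult and 9.79 in larval CCs) were lower.

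**Figure D3:**
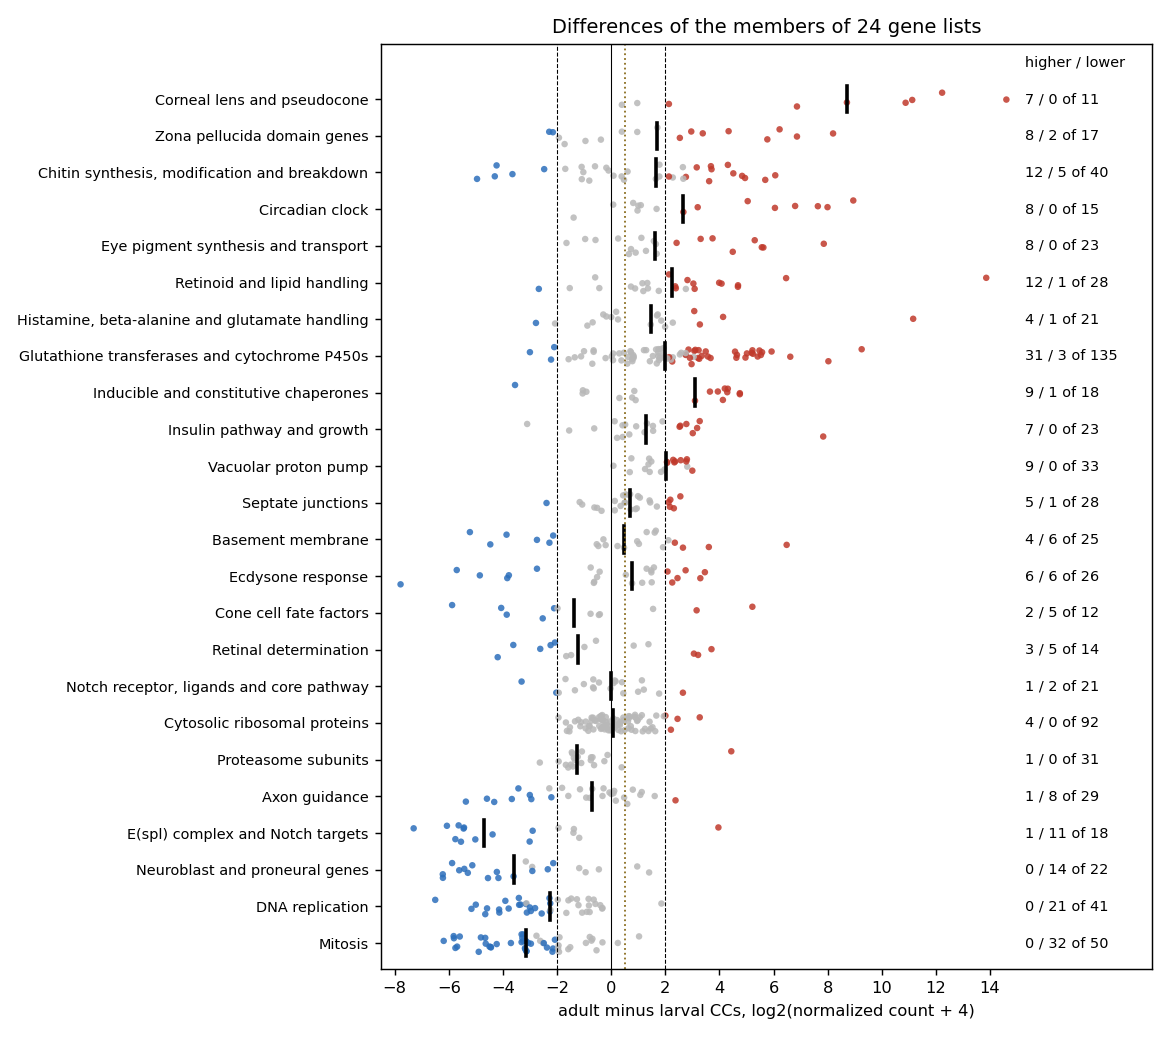
Adult minus larval difference on log2(normalized count + 4) for the members of 24 gene lists at 8 units or more in either library (1 point per gene, red higher, blue lower, grey not called). Black bars are list medians, the dotted line is the median of all genes (0.49), and the numbers at the right count higher and lower genes among the members measured.

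The circadian clock genes formed the next group with a large share of higher calls. Of 15 members 8 were higher (53.3%) and none was lower, with a median of 2.67. The clock is a feedback loop in which the products of Clk and cyc activate per and tim, whose products then repress it. tim was at 11.48 in adult and 0.84 in larval CCs, and per at 7.99 in adult and 5.19 in larval CCs. Clk was at 9.63 and cry, which encodes the blue light receptor cryptochrome, at 8.78 in adult CCs, and both were listed at 0 in larval CCs. Activators, repressors and the light input gene were thus all called in the same direction, while cyc (7.62 in adult and 6.59 in larval CCs) was not called. The second loop followed, with Pdp1 at 11.94 in adult and 5.79 in larval CCs, vri at 11.61 in adult and 6.50 in larval CCs, and cwo at 10.06 in adult and 6.82 in larval CCs. Pdfr, the receptor of the clock neuropeptide PDF, was at 10.62 in adult and 1.12 in larval CCs. The kinase genes sgg, dco, CkIIalpha and CkIIbeta, which act on clock proteins and on much else, had differences between 0.06 and 1.69 and were not called. On equal library totals 7 of the 8 remained higher and nocte was lower. The time of day of dissection is not given in the sources used here.

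Genes for handling retinoids and lipids were called in 13 of 28 cases, 12 higher (42.9%, against 9.01% of all genes) and 1 lower. Besides Pdh, the carotenoid oxygenase gene ninaB, which makes the chromophore of rhodopsin, was at 9.49 in adult and 2.06 in larval CCs, and the scavenger receptor gene santa-maria, which acts in carotenoid uptake, was at 5.89 in adult CCs and listed at 0 in larval CCs. ninaD, another uptake receptor gene, was below 32 units in both (4.53 in adult CCs and listed at 0 in larval CCs). Among the lipid genes, Npc2b (6.63 in adult CCs and listed at 0 in larval CCs), desat1 (10.40 in adult and 7.29 in larval CCs) and ACC, the gene of acetyl-CoA carboxylase (11.06 in adult and 8.00 in larval CCs), were higher, and LRP1 was lower (7.16 in adult and 9.86 in larval CCs). Only 6 of the 12 stayed higher with equal library totals.

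Eye pigment genes were higher in 8 of 23 cases (34.8%, against 9.01% of all genes) and lower in none. The pteridine genes Pu, GTP cyclohydrolase (9.56 in adult and 3.52 in larval CCs), pr and se were higher. So were Hn (9.85 in adult CCs and listed at 0 in larval CCs) and the pigment granule Rab gene ltd (12.14 in adult and 6.52 in larval CCs). The ommochrome gene CG6969 (cardinal in the reference annotation) was at 9.48 in adult and 3.83 in larval CCs. The transporter genes st (8.03 in adult and 2.96 in larval CCs) and bw (5.76 in adult and 2.79 in larval CCs) completed the set. Members of the pteridine and the ommochrome pathway were thus both represented. The white gene, whose product pairs with both transporters, was not called (w, 4.87 in adult and 5.93 in larval CCs). The adult flies carried the yw67 chromosome, and how far that bears on these genes was not tested.

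The 135 glutathione transferase, cytochrome P450 and related detoxification genes contained 31 higher and 3 lower members (23.0% and 2.22%). After Cyp4c3, the largest were Cyp4p1 (10.71 in adult and 1.28 in larval CCs), Cyp4aa1 (8.60 in adult CCs and listed at 0 in larval CCs) and Cyp6a20 (8.84 in adult and 1.84 in larval CCs). GstD9 was the transferase with the largest difference (7.54 in adult CCs and listed at 0 in larval CCs), whereas the abundant GstS1 was lower (8.00 in adult and 10.24 in larval CCs). The list as a whole thus had 20 members listed at 0 in adult CCs and 76 in larval CCs. With equal library totals 19 of its members were higher and 6 lower.

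Among transport and metabolic genes, Gs2 was joined by the transporter gene ine (6.83 in adult and 1.43 in larval CCs), CG1732, the GABA transporter gene of the reference annotation (5.99 in adult and 1.58 in larval CCs), and Gs1 (6.71 in adult and 3.16 in larval CCs), and the vesicular glutamate transporter gene VGlut was lower (2.90 in adult and 6.22 in larval CCs). The chloride channel gene ClC-a (8.06 in adult and 1.58 in larval CCs) and Ir, an inward rectifier potassium channel gene (10.37 in adult and 5.28 in larval CCs), were higher, and the sodium pump beta subunit gene nrv1 was lower (0.59 in adult and 6.02 in larval CCs). Atpalpha, the pump's catalytic subunit, was not called (12.69 in adult and 11.01 in larval CCs). Of 30 genes of glycolysis and sugar supply 4 were higher (13.3%, against 9.01% of all genes). These 4 were among the 23 members at 32 units or more, a level at which 20.9% of all genes were higher. They were Treh, which splits the blood sugar trehalose (12.22 in adult and 7.10 in larval CCs), the hexokinase gene Hex-A (10.84 in adult and 7.50 in larval CCs), the trehalose transporter gene Tret1-1 (8.86 in adult and 6.12 in larval CCs) and the lactate dehydrogenase gene ImpL3 (6.03 in adult and 3.15 in larval CCs). Another hexokinase gene, Hex-C, was lower (2.36 in adult and 5.30 in larval CCs), and equal library totals left 2 higher members and gave 2 lower ones. The proton pump list held 9 of 33 higher genes (27.3%), with Vha55 at 11.05 in adult and 8.47 in larval CCs. Only 1 of its members was higher with equal library totals.

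Known inhibitors of growth were among the genes higher in adult CCs. Of the 23 insulin and growth genes 7 were higher (30.4%, against 9.01% of all genes) and none was lower. Thor, the gene of the translation repressor 4E-BP, was at 11.06 in adult and 2.43 in larval CCs, and its activator foxo was at 8.76 in adult and 5.48 in larval CCs. The TOR inhibitor genes chrb (12.65 in adult and 9.38 in larval CCs) and scyl (13.51 in adult and 10.73 in larval CCs) were higher, as were CG13624 and CG18619, which the reference annotation pairs with the TOR-repressed factor REPTOR and its partner. Receptor and kinase genes, such as InR (10.53 in adult and 9.20 in larval CCs) and Akt1 (10.39 in adult and 8.85 in larval CCs), were not called. Only 3 of the 7 stayed higher with equal library totals.

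Heat shock genes were also higher. Of 18 chaperone genes 9 were higher and 1 lower, but 6 of the 9 are near-identical copies of Hsp70, between which reads can be split in the counting, so their single values are uncertain. Hsp70Aa and Hsp70Ab each had levels of 13.72 in adult and 8.96 in larval CCs. DnaJ-1, their partner, was at 14.10 in adult and 10.45 in larval CCs, the co-chaperone gene stv at 11.10 in adult and 7.12 in larval CCs, and Hsp68 at 12.38 in adult and 9.28 in larval CCs. The constitutive Hsc70-4 was not called (11.80 in adult and 12.86 in larval CCs). Heat-inducible members of the list were thus called and the most abundant constitutive member was not. With equal library totals 8 members were higher and 4 lower. The small heat shock family was divided: Hsp26 was higher (11.14 in adult and 8.47 in larval CCs), Hsp27 nearly level (11.56 in adult and 11.78 in larval CCs), and Hsp67Ba (1.36 in adult and 6.98 in larval CCs) and Hsp67Bc (listed at 0 in adult CCs and at 6.51 in larval CCs) were lower. Hsp22 and Hsp67Bb were also called higher, but they overlap in the reference annotation and reads can be shared between them, so both are uncertain. Among immune genes 6 of 27 were higher (22.2%, against 9.01% of all genes). They included the NF-kappaB genes Dif (9.50 in adult and 5.20 in larval CCs), dl and Rel. The stress peptide gene TotM was also higher (7.01 in adult CCs and listed at 0 in larval CCs). The immediate-early and JNK list had 3 of 17 higher (17.6%), with Atf3 at 8.97 in adult and 5.17 in larval CCs. It had 12 members at 32 units or more, a level at which 20.9% of all genes were higher. On equal library totals 3 of the 6 immune genes and 1 of the 3 immediate-early and JNK genes stayed higher. Adult cells were stained with antibodies before sorting and larval cells were not, and the part of handling in these values was not tested.

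Genes of cell division were lower as a group. None of 41 DNA replication genes was higher and 21 were lower (51.2%, against 4.45% of all genes), with a median of -2.27. All 6 subunits of the MCM replicative helicase were among them: Mcm7 was at 2.23 in adult and 8.27 in larval CCs, Mcm5 at 0.95 in adult and 7.54 in larval CCs, and dpa, the fly Mcm4, at 2.58 in adult and 7.42 in larval CCs. The ribonucleotide reductase genes RnrS (1.81 in adult and 7.53 in larval CCs) and RnrL (3.17 in adult and 7.58 in larval CCs) followed. Of 50 mitosis genes 32 were lower (64%) and none was higher, with a median of -3.13. In the groups of the deposited annotation, 21 of 94 mitosis genes were lower (22.3%) and 4 higher, and 17 of 46 DNA replication genes were lower (37.0%) and 2 higher. The spindle and cytokinesis genes Klp67A (1.25 in adult and 8.48 in larval CCs), tum (listed at 0 in adult CCs and at 7.79 in larval CCs) and pav (listed at 0 in adult CCs and at 7.57 in larval CCs) showed this, as did the mitotic triggers stg, the Cdc25 phosphatase gene (3.44 in adult and 9.64 in larval CCs), and polo (2.94 in adult and 9.23 in larval CCs). The A, B and B3 cyclin genes were also all lower. Over all members, the replication genes summed to 1597 units in adult and 6337 units in larval CCs, and the mitosis genes to 1463 units in adult and 10753 units in larval CCs. In bulk libraries, fewer cells that express a gene and less RNA per cell cannot be told apart.

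Nucleolar genes went the same way to a smaller extent, with 6 of 24 lower and none higher, including Fib, the fibrillarin gene (3.23 in adult and 6.71 in larval CCs), and Nop60B (4.18 in adult and 7.78 in larval CCs). The ribosomal proteins themselves were near the middle: of 92 cytosolic ribosomal protein genes, the 84 at 8 units or more had a median of 0.07, below the 0.49 of all genes. Their 4 higher members were RpL38, RpL37A, RpL39 and RpL36. Proteasome subunits had a median of -1.26 with only Rpt4R called, a higher gene. Among the 1710 genes whose transcripts span 1227 bases or less, the median difference was 0.82, against 0.35 to 0.52 in 4 groups of longer genes. The share of higher calls was 12.5% in the shortest group and 16.9% in the longest.

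Many Notch target genes were lower, and few genes of a list of the core pathway were called. Of 18 members of the Enhancer of split complex and other targets, 11 were lower (61.1%) and 1 was higher, with a median of -4.70. The target genes HLHmgamma (2.94 in adult and 9.09 in larval CCs), HLHm7 (5.92 in adult and 10.39 in larval CCs) and malpha (3.28 in adult and 9.22 in larval CCs) were lower, and m4, Hey and Tom were listed at 0 in adult CCs and stood at 7.73, 7.61 and 7.41 in larval CCs. The repressor gene hairy was the higher one (h, 8.90 in adult and 4.75 in larval CCs). By contrast the receptor gene Notch (N, 9.07 in adult and 10.77 in larval CCs), the ligand gene Dl (7.70 in adult and 8.72 in larval CCs) and the effector gene Su(H) (5.28 in adult and 6.71 in larval CCs) were not called, and of 21 core pathway genes 1 was higher (pen-2) and 2 were lower (the glycosyltransferase gene fng and the ligand gene Ser). The core pathway median was -0.02. With equal library totals 6 core pathway genes were lower and none was higher, and in the Notch pathway group of the deposited annotation 13 of 44 genes were lower and 1 was higher. The difference between the 2 lists was not tested.

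Neuroblast and proneural genes, which specify neural stem cells and sense organs, were lower in 14 of 22 cases and higher in none. That is 63.6%, against 4.45% of all genes. Besides dpn and nerfin-1, the Snail family genes sna (listed at 0 in adult CCs and at 7.59 in larval CCs), wor (3.10 in adult and 8.94 in larval CCs) and esg (1.36 in adult and 7.82 in larval CCs) and the bHLH gene ase (3.47 in adult and 8.06 in larval CCs) were lower. Axon guidance genes were lower in 8 of 29 cases (27.6%). Examples were the netrin receptor gene unc-5 (3.92 in adult and 9.62 in larval CCs), Dscam2 (5.62 in adult and 10.32 in larval CCs) and robo3 (3.10 in adult and 7.95 in larval CCs). In this list caps alone was higher (10.16 in adult and 7.76 in larval CCs). Planar polarity genes included 3 lower of 10, with the atypical cadherin gene stan at 6.25 in adult and 11.35 in larval CCs.

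The factors that specify CCs did not move together. Of 12 fate factors 2 were higher and 5 were lower (16.7% and 41.7%, against 9.01% and 4.45% of all genes). sv, the fly Pax2 gene, was at 13.62 in adult and 8.39 in larval CCs, and ct, a homeodomain gene that marks CCs, at 12.80 in adult and 9.64 in larval CCs. pros, the homeodomain gene whose enhancer drove the reporter of the larval sort, was at 4.28 in adult and 10.43 in larval CCs, so its level was part of how larval cells were chosen. lz, the Runx factor that primes cells of the eye disc (4.09 in adult and 8.24 in larval CCs), salr (3.53 in adult and 8.00 in larval CCs), salm (7.48 in adult and 9.61 in larval CCs) and svp (3.26 in adult and 6.22 in larval CCs) were lower. By antibody staining, the paper found the Pros protein in mature CCs. The low adult RNA level of pros therefore does not show that the protein is absent. In the retinal determination network, eya (12.66 in adult and 9.44 in larval CCs), toe (7.15 in adult and 2.84 in larval CCs) and eyg (7.63 in adult and 4.34 in larval CCs) were higher and dac (2.28 in adult and 6.71 in larval CCs), dan, danr, tsh and tio were lower, while ey, toy, so and gl were not called. In EGF receptor signalling, the ligand gene vn (11.43 in adult and 5.06 in larval CCs) and the phosphatase gene Mkp3 (11.03 in adult and 6.22 in larval CCs) were higher, and the ligand protease genes ru (3.96 in adult and 8.18 in larval CCs) and rho, the effector gene pnt and the fate gene phyl (2.21 in adult and 7.68 in larval CCs) were lower. Over all 385 genes annotated as sequence-specific transcription factors, 47 were higher and 58 lower (12.2% and 15.1%). Of these genes 238 reached 32 units, a level at which 20.9% of all genes were higher and 10.3% lower. The higher ones were led by the bHLH gene tx, Clk, Pdp1, Ets98B and sv. The lower ones were led by E(spl), dpn, HLHmdelta, pros and br.

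Ecdysone response genes were called 6 times in each direction out of 26. The lower ones were br, ImpE1, ImpE2, ImpL1, Hr4 and Hr46. Among them br, the Broad factor, was at 7.05 in adult and 12.80 in larval CCs, and ImpE1 at 4.32 in adult and 9.43 in larval CCs. The higher ones were EcR, Eip93F, ftz-f1, Hr38, Eip63F-1 and Cyp18a1. The receptor gene EcR was at 9.94 in adult and 7.84 in larval CCs. Eip93F was at 10.65 in adult and 7.32 in larval CCs, and ftz-f1 at 9.31 in adult and 6.82 in larval CCs. With equal library totals only 1 of the 6 was still called higher.

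Markers of other cells moved between the libraries as well. Of 29 photoreceptor genes 9 were higher (31%, against 9.01% of all genes) and 1, futsch, was lower. The list summed to 6473 units in adult and 4055 units in larval CCs. Arr2 (7.92), trpl (7.13) and trp (6.38) were seen in adult CCs and listed at 0 in larval CCs, and ninaC was at 7.82 in adult and 0.84 in larval CCs. The opsin gene ninaE, at 17.37 in the PR library, was at 1.39 in adult CCs and listed at 0 in larval CCs, and Arr2 and trp were at 15.42 and 13.65 in the PR library. Of the 1346 higher genes 63 (4.68%) were higher still in PRs than in adult CCs by the same rule, 678 were lower in PRs and 605 were not called. Over all genes 4.91% were higher in PRs. The higher genes were chosen by the adult CC level that is also compared with PRs, so these shares cannot be set against each other. futsch, the antigen of 22C10, was at 6.58 in adult and 10.31 in larval CCs, and Fas3 at 11.83 in adult and 9.51 in larval CCs. Both were used to sort the adult cells and are therefore no finding. The pan-neuronal gene elav was at 8.74 in adult and 10.75 in larval CCs.

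Of 14 hemocyte genes 4 were higher and 2 lower (28.6% and 14.3%, against 9.01% and 4.45% of all genes). They summed to 1286 units in adult and 603 units in larval CCs. The higher ones were Hml (7.23 in adult and 1.26 in larval CCs), Sr-CI, crq and nimC1. The lower ones were gcm and lz, which also stand in the glial list and the list of CC fate factors. He was listed at 0 in both libraries, and eater was at 3.87 in adult CCs and listed at 0 in larval CCs. Of 16 muscle genes 3 were higher (18.8%) and none lower (7542 units in adult and 2025 units in larval CCs in sum). Among these were Mhc, at 6.71 in adult CCs and listed at 0 in larval CCs, and sls, which holds most of the adult sum. Of 14 glial genes 3 were higher and 1 lower (2971 units in adult and 1471 units in larval CCs in sum), with wrapper at 8.41 in adult and 0.84 in larval CCs and the glial factor gene repo at 0.77 in adult and 3.90 in larval CCs. Pigment cell genes were split 3 higher to 3 lower of 9, with Pdh the strongest, and of 6 bristle genes 2 were higher and 1 lower. No fat body gene of 10 was called (37.6 units in adult and 4.00 units in larval CCs in sum). Several markers of these cells were thus above 0 in adult CCs, and their part in the differences described here was not tested. Neuronal RNA was also present in the larval library, which was sorted by GFP alone. The 23 pan-neuronal and synaptic genes summed to 7513 units in adult and 8854 units in larval CCs. For the neuroblast and proneural genes the sums were 3855 units in adult and 9146 units in larval CCs. Whether the lower neuroblast, axon guidance and cell division genes reflect other cells in the larval sort was not tested.

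The pupal library showed how much of the net change was in place 25 h after puparium formation. Of the 1346 genes higher in adult CCs, 196 (14.6%) had already passed the same rule between pupal and larval CCs, 382 (28.4%) had moved partly, by a difference of 1 or more, 741 (55.1%) had not moved by 1, and 27 (2.01%) had moved by 1 or more the other way. Between pupal and larval CCs the rule called 4.64% of all genes as higher and 1.07% as lower. Of the 665 genes lower in adult CCs, 119 (17.9%) had already moved, 110 (16.5%) partly, 312 (46.9%) not, and 124 (18.6%) were higher in pupal CCs by 1 or more. The median share of the net log2 difference reached in pupal CCs was 0.24 for higher and 0.17 for lower genes. Of the 273 genes listed at 0 in larval CCs, 239 were above 0 in pupal CCs but only 41 reached 32 units there. Over all genes, 12649 were listed above 0 in the pupal library, against 9344 in the larval library. Pupal and larval CCs shared genotype and sort, so the steps to the pupal stage do not carry those differences, whereas the rest of each net change does. The pupal and the adult values are set against the same larval library, so an error in that library enters both.

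**Figure D4:**
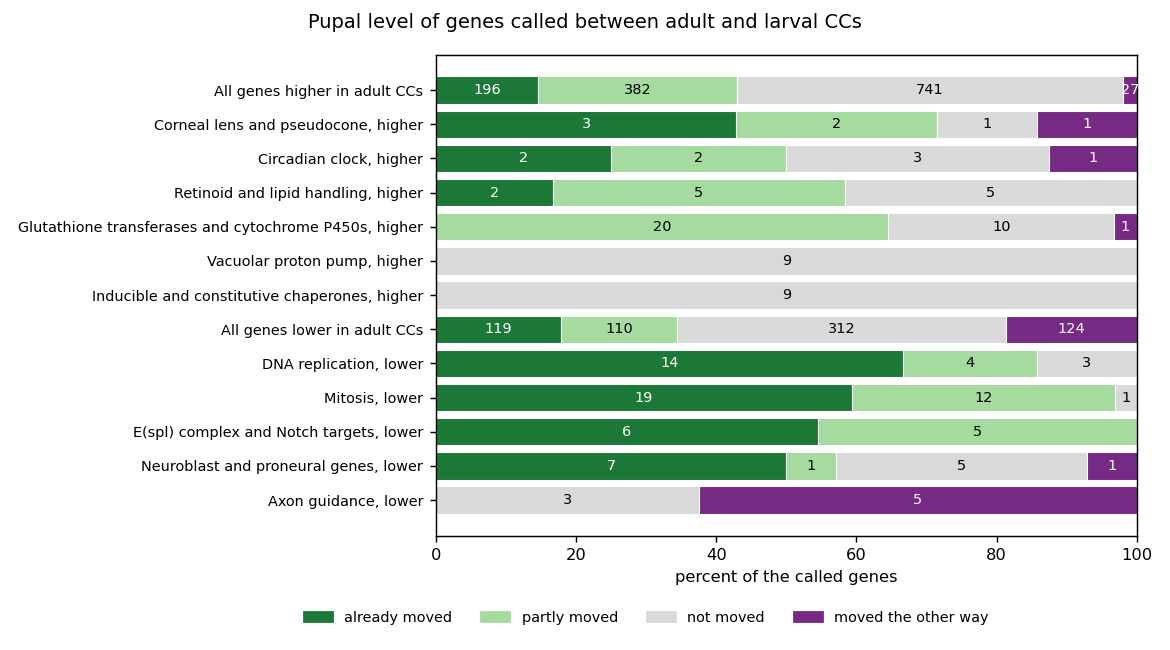
Percent of called genes in each pupal class, for all genes and for selected lists, with the number of genes printed in each segment. Replication and mitosis genes had mostly moved by the pupal stage, all 9 chaperone and all 9 proton pump genes had not, and 5 of 8 lower axon guidance genes had moved the other way.

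Cell division genes were ahead of the rest. Of the 21 lower replication genes 14 had already moved and 4 partly, and of the 32 lower mitosis genes 19 had already moved and 12 partly. In larval, pupal and adult CCs, mus209 was at 9.21, 5.16 and 1.36, and polo at 9.23, 6.24 and 2.94. Notch targets resembled them, with 6 of 11 already and 5 partly moved, as in E(spl) at 9.29, 5.68 and 0 in larval, pupal and adult CCs. Other decreases came later. pros was at 10.43, 9.72 and 4.28, and rst at 9.69, 9.22 and 3.23 in larval, pupal and adult CCs, so both differed by less than 1 between pupal and larval CCs. None of the 8 lower axon guidance genes had moved by 1 or more towards its adult level, and 5 were higher by 1 or more in pupal CCs, as in Dscam2 at 10.32, 12.64 and 5.62 in larval, pupal and adult CCs. Of 23 pan-neuronal and synaptic genes 2 were higher, para and Rdl, both of which had already moved (para at 5.36, 8.09 and 8.18 and Rdl at 3.54, 7.74 and 5.92 in larval, pupal and adult CCs), and 4 were lower. These 4, stnB, Appl, VAChT and brp, were all higher by 1 or more in pupal than in larval CCs.

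Among the increases, 3 of the 7 lens genes had already moved, Cpr49Ae, CG5597 and dp. In larval, pupal and adult CCs, dp was at 9.72, 12.19 and 16.59, and CG5597 at 0, 6.32 and 13.12. retinin was still listed at 0 in pupal CCs, and Gasp had a lower level there than in larval CCs (10.26, 8.05 and 12.39 in larval, pupal and adult CCs). The lens genes therefore did not appear together. Of the 8 clock genes tim and Clk had already moved, at 6.02 and 5.78 in pupal CCs, Pdfr and Pdp1 partly, vri, cry and cwo had not, and per was lower in pupal CCs (3.20) than in larval CCs. Gs2 was at 0.84, 5.66 and 13.69 in larval, pupal and adult CCs, and sv was at 8.39, 8.99 and 13.62. Of the 31 higher detoxification genes none had already moved and 20 had moved partly. All 9 chaperone, all 9 proton pump and all 6 immune genes that were higher had not moved by the pupal stage.

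**Figure D5:**
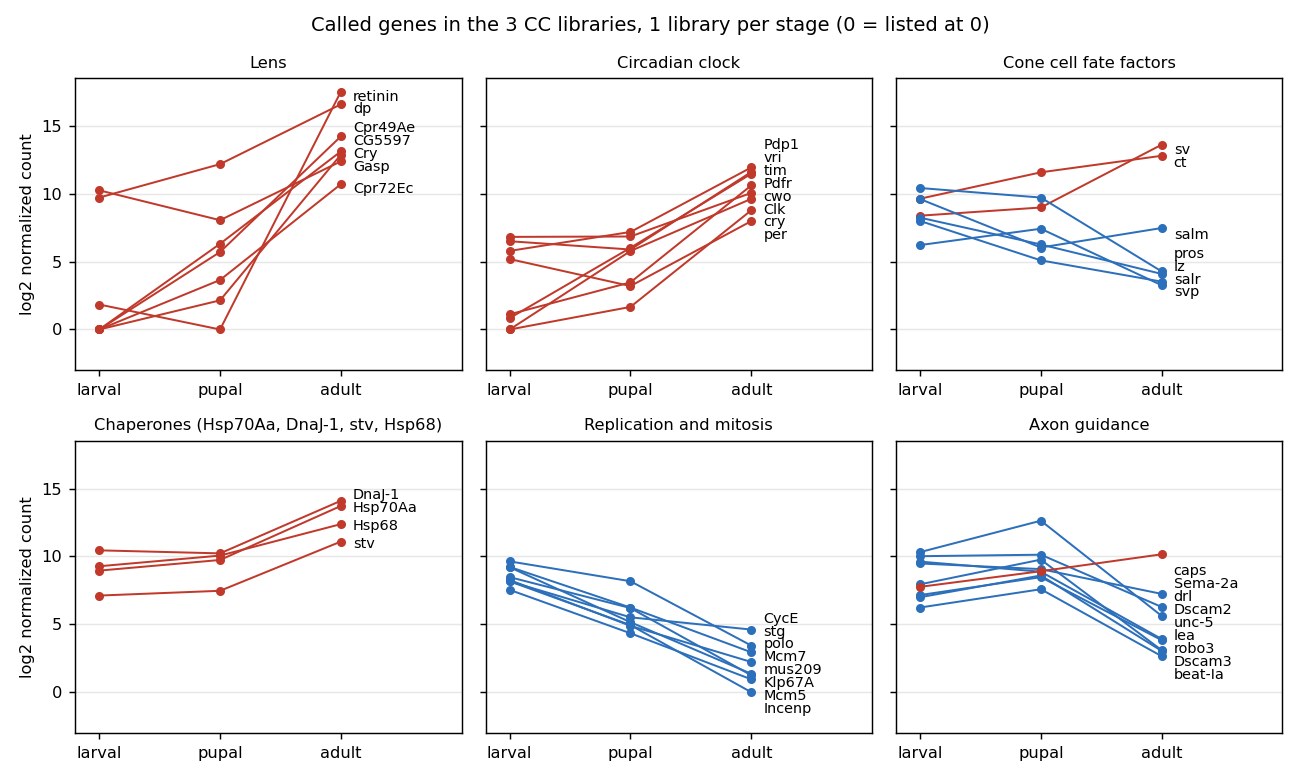
Log2 normalized counts of called genes of 6 groups in larval, pupal and adult CCs, 1 library per stage, with genes higher in adult CCs in red and lower ones in blue. Labels are in the order of the adult levels. The 8 replication and mitosis genes drawn drop at both steps, whereas the 4 chaperone genes drawn differ by less than 1 between pupal and larval CCs.

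Some genes went against their net change by the pupal stage. Ef1alpha100E was at 9.53, 12.94 and 4.90 in larval, pupal and adult CCs, miple, a gene of the midkine and pleiotrophin family, at 9.56, 12.03 and 4.23, and tnc at 9.46, 11.71 and 6.60. Each of these 3 genes peaked in pupal CCs and was lowest in adult CCs. Of the 665 lower genes 37 were called higher in pupal than in larval CCs. In the opposite sense, CG1673 was at 4.83, 2.28 and 9.83 in larval, pupal and adult CCs, Msr-110 at 7.73, 5.41 and 11.52, and CG34417 at 10.08, 8.02 and 12.35. Of the 1346 higher genes only 4 were called lower in pupal CCs. Among transcription factors, 4 of the 47 higher and 20 of the 58 lower factors had already moved, and 33 of the 47 higher and 19 of the 58 lower factors had not moved.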

How the data were processed

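RNA was measured in sorted cells as 1 library per condition. The authors amplified the RNA with the NuGEN Ovation system, made Nextera libraries and aligned reads to dm3 (with TopHat2 2.0 and Bowtie 1.0, according to the submitters' processing notes). The deposited values are log2 of TMM-normalized counts for each gene, which the authors scaled together with whole-fly data; normalized counts up to 1 appear as 0. Of 14959 entries, 24 repeats listed at 0 were left out, leaving 14935 genes. Depth was estimated from the steps between low values: of the values below 30 units, 44.1% in adult and 53.1% in larval CCs were multiples of the step to within 0.02. This is too few to recover the reads, so count models were not used. Steps as small as a much greater depth would give were not searched, so the larger read number that the paper reports could not have been found. The authors' whole-animal and mouse comparisons were not used here.

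Calls, list medians (members at 8 units or more, lists of 5 or more such members) and pupal classes were computed with Python 3.11.15, numpy 2.4.6 and pandas 2.3.3, and figures with matplotlib 3.10.9. A list is described by its counts and median beside those of all genes, with no test. Members of 52 lists were matched by symbol, by pattern or by FlyBase or Entrez ID (Ensembl release 115, BDGP 6), and 2 members had no match. That annotation is on another genome build, so no coordinates are given. Transcription factors were taken from the annotation column of the deposited table. The members and lists were chosen with earlier results of these data known. Genes named are the 15 largest differences per direction at 8 times the floor of 32 units or more, up to 4 of each list, the 6 per direction that moved farthest the other way in pupal CCs, the 10 most abundant that differed by less than 0.5, those of the sorts and genotypes, and 4 on each side of each limit. All other genes named were chosen after their values were seen. Some items are not reported here. A planned search of promoters for motifs was not run, since it needs sequences that were not used here.

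In simulated data with counting error only, 200 genes were changed, all with a mean level well above the floor. Of the 4-fold changes between adult and larval CCs the rule found 35.8%. It found 100% of the 8-fold and of the 16-fold changes, and called 0 of 14735 genes left unchanged. No spread between libraries was simulated, so these shares do not measure the error of the rule in the real libraries. As no gene near the floor was changed, the shares found do not hold for weakly expressed genes, whose recovery was not assessed. Alternatives were added constants of 1 and 16 units, scaling to equal totals or equal medians, no floor or a floor 8 times higher, an 8-fold rule and other members for the list medians.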

Additional observations from a re-analysis of the deposited data

How the results depend on the processing

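The number of genes higher in adult CCs (1346) was 703 with equal library totals, 700 with a floor 8 times higher and 802 with the 8-fold rule, and the number of lower genes (665) was 1557, 206 and 324 under the same settings and 415 with 16 units added. The median difference of all genes was -0.65 with equal totals, against 0.49 as deposited. With 16 units added, 19 list medians lay 1 or more from that of all genes, against 30 of 51 with 4 units. The share of higher genes that had already moved by the pupal stage (14.6%) was 9.16% with 16 units added and 24.8% with no floor, and that of lower genes (17.9%) was 11.7% with equal totals. Over all measured members, most of them listed at 0, the medians of the Cpr and of the other cuticle protein families lay at -0.16 relative to all genes, on the other side of 0 than over members at 8 units or more. Of the 244 named genes, 31 lost and 12 gained a call with equal totals, 26 lost one with 16 units added, 9 gained one with 1 unit added, and with the median ratio set to 0 16 lost and 7 gained one. No paired analysis was possible because each stage has 1 library and no test was run. Single libraries limit every value: the spread between separate sorts was not measured here, depth is estimated, and a gene listed at 0 may hold about 1 read.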
